A study of Rattus norvegicus with 9 samples.

Results

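The proteasome genes of rat tongue were taken as every gene whose symbol in the array annotation follows the proteasome subunit series (Psma, Psmb, Psmc, Psmd, Psme, Psmf and Psmg with a number) and stands alone on its probe set. The rule found 44 of the 14217 genes with a single-symbol probe set. They comprised 7 alpha ring subunits, 6 constitutive and 3 immune beta subunits, 6 ATPases, 11 non-ATPase subunits, 3 assembly chaperones of the base, 3 activators, 1 inhibitor and 4 assembly chaperones of the core. A gene with several probe sets was represented by its brightest probe set over the 9 arrays. Another 6 probe sets carried a proteasome symbol together with a second symbol and were left out, so that Psmb6 and Psme3 have no value here.

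Expression was measured in 9 samples of tongue tissue from male Sprague Dawley rats, with 3 samples in each of 3 groups. The normal group was given distilled water, and the 4NQO group was given 0.002% 4-nitroquinoline oxide (4NQO), a carcinogen that damages DNA and causes tumours of the oral epithelium, in its drinking water. The IL-1Ra group was given 4NQO and the interleukin 1 receptor antagonist (IL-1Ra), which occupies the receptor of interleukin 1 without activating it. The labels describe killing at visible lesions from week 14 to week 22, whereas the study's methods describe 4NQO followed by injections of IL-1Ra or saline into the tongue and killing at the end of week 22. Per the study's text the arrayed tongue tissues were picked at random from the rats of each group, but the labels tie no sample to an animal and the lesion stage of each sample was not found in them or in the study's text. The p-values cover the spread between these samples.

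The proteasome degrades proteins tagged with ubiquitin. Its barrel-shaped core is built of outer rings of alpha subunits and inner rings of beta subunits, of which Psmb5, Psmb6 and Psmb7 carry the proteolytic sites, and a regulatory particle of ATPases and non-ATPase subunits binds, unfolds and feeds in the tagged protein. Interferon induces the immune subunits Psmb8, Psmb9 and Psmb10, which take the places of Psmb5, Psmb6 and Psmb7 in newly built cores and favour peptides that MHC class I molecules can present, and leukocytes hold these subunits without induction.

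Levels are given as log2 of the deposited intensity of a probe set, and differences between groups as differences of group means on that log2 scale, so that a difference of 1 is a doubling. The proteasome genes gave strong signals, since 41 of the 44 had a mean level above the upper quartile of every array, as did 37.8% of all genes. The 3 below it were the immune subunits. Levels were steady within groups, with a median SD of 0.10 log2 for the proteasome genes and 0.18 for all genes. The median of the mean levels was 9.56 log2 for the members and 6.59 for all genes, so this comparison was not matched for level. The smallest range over the 9 arrays was 0.15 log2 (Psmd7) and the largest 2.11 (Psmb9). Measured markers of skeletal muscle (9 of 9) and squamous epithelium (6 of 7) were each above the lower quartile of at least 1 array. In bulk tissue, fewer cells of a type and less RNA per cell cannot be told apart. The summed intensity of fibroblast markers was 18235 to 20963 on normal arrays, 4455 to 13156 on 4NQO arrays and 12358 to 15750 on IL-1Ra arrays, and that of endothelial markers 909 to 1055, 1261 to 1792 and 1024 to 1257. That of epithelial markers was 28098 to 35482, 25330 to 43547 and 36027 to 40299. Of the 6 measured epithelial markers, Tp63, a factor of basal cells, rose by 1.4 log2 in 4NQO against normal tongue (adjusted p 0.0226), while the basal keratin Krt5 was at 0.81 (adjusted p 0.0635) and the keratins of differentiated cells Krt13 and Krt4 at -0.33 and -0.28 (adjusted p 0.11 and 0.172), each without overlap. The remaining markers, the basal keratin Krt14 and Cdh1, were at 0.45 and 0.39 (adjusted p 0.5 and 0.223), and their arrays overlapped. RNA quality, read from the 3′ minus 5′ signal of beta-actin, was 0.74 to 0.86 log2 on normal, 1.07 to 1.29 on 4NQO and 0.98 to 1.27 on IL-1Ra arrays. The same signal of GAPDH was 0.23 to 0.3 on normal, 0.31 to 0.43 on 4NQO and 0.26 to 0.28 on IL-1Ra arrays. For hexokinase it was 1.47 to 1.53 on normal and 1.29 to 1.78 on 4NQO arrays, with every IL-1Ra array higher, up to 2.2. The order of the groups thus differed between these control genes. The part of tissue makeup and RNA quality in the differences given here was not tested.

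The first comparison asked how proteasome genes stood in tongues exposed to the carcinogen. In 4NQO against normal tongue, Psmd2 and Psmd1, the largest subunits of the regulatory particle, and the immune subunit Psmb10 rose, and no proteasome gene fell. Thus 3 of 44 genes were called higher by limma at an adjusted p under 0.05, beside 12.4% of all genes, and 0 were called lower, beside 5.08% of all genes. Before adjustment, 12 of the 44 had p under 0.05, beside 5195 of all 14217 genes. The difference was above 0 for 38 of the 44 genes (86.4%, against 58.0% of all genes), but its median was small at 0.14 log2, beside 0.08 over all genes and 0.16 over the 10975 genes left when the dimmest probe sets were removed. All 4NQO arrays lay above all normal arrays for 17 members (26.5% of all genes did so) and below them for 1, Psmc6 (14.8% of all genes). The 95% interval of the difference lay within 1.5-fold (0.58 log2) in either direction for 37 of the 44 genes, or 84.1%, against 48.0% of all genes. The members and all genes were not matched for level, so these shares do not compare like with like.

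The direction common to these genes depended on how the arrays were scaled. The upper quartile of log2 intensity was 7.04 to 7.08 on normal arrays, 7.21 to 7.28 on 4NQO arrays and 7.16 to 7.26 on IL-1Ra arrays, so bright genes as a whole stood higher in the treated groups. After quantile normalization the median difference of the proteasome genes was 0.076 log2 with 28 of 44 above 0, and after cyclic loess it was 0.011 with 23 above 0. Under both scalings 1 gene was called higher, Psmd2, and 1 lower, Psmc6. Over all genes the calls were 1757 higher and 722 lower as deposited, 743 and 670 after quantile normalization, and 560 and 666 after cyclic loess.

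**Figure D1:**
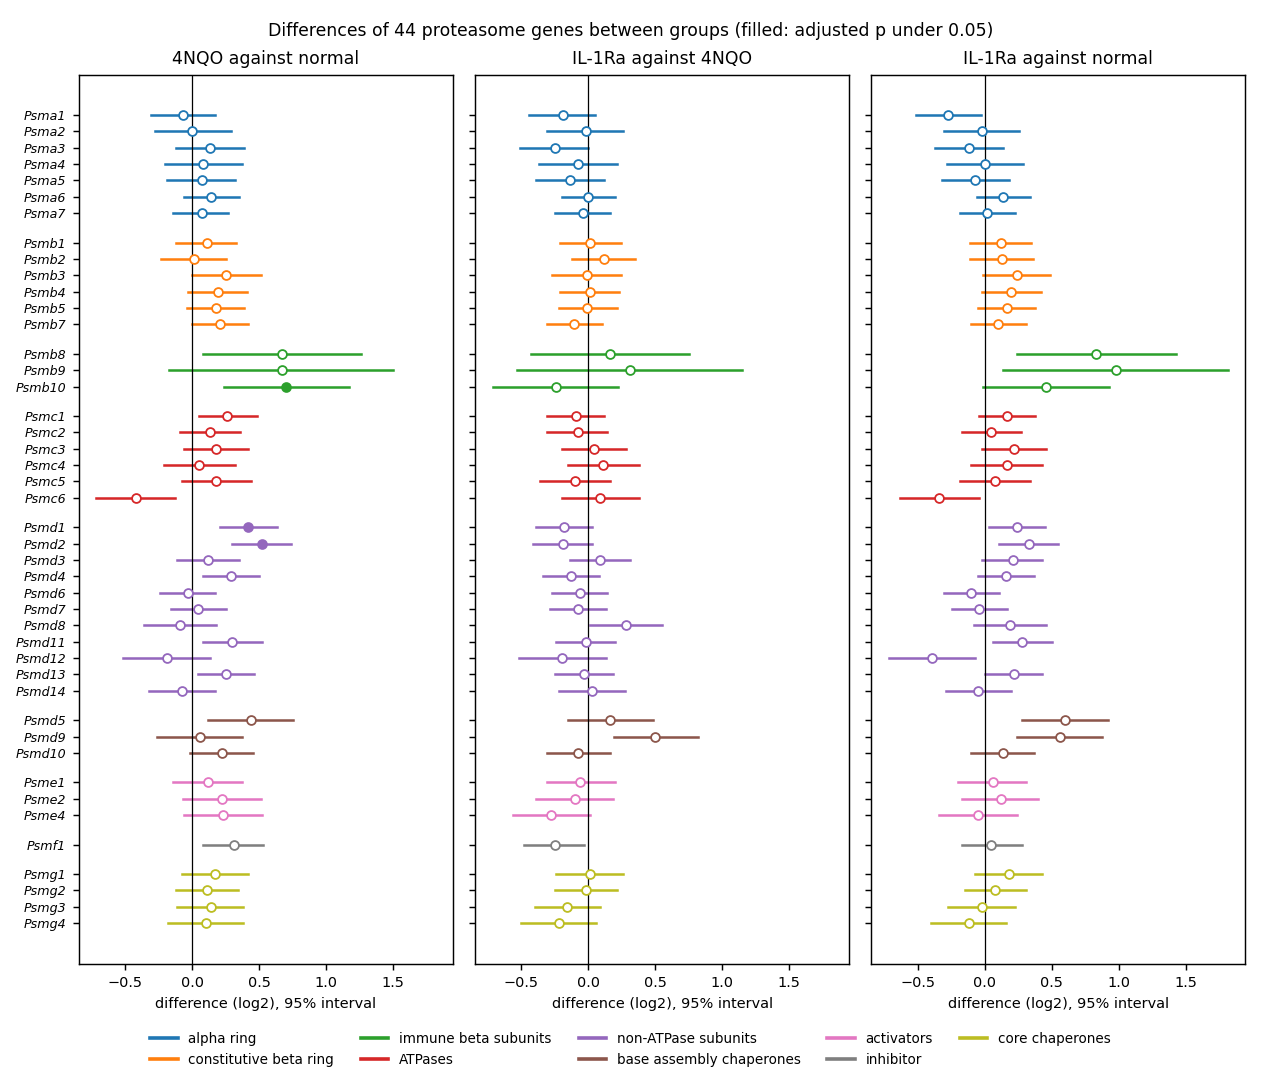
Differences in log2 level of the 44 proteasome genes, coloured by class, in 4NQO against normal, IL-1Ra against 4NQO and IL-1Ra against normal tongue; lines are 95% intervals from limma and filled points have an adjusted p under 0.05. Filled points are present for Psmb10, Psmd1 and Psmd2 in the first comparison alone, and most members lie between -0.25 and 0.30.

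Psmd2 and Psmd1 are the paired scaffolds of the base of the regulatory particle. Psmd2 also binds the shuttle factors that deliver ubiquitylated proteins. Psmd2 had levels of 10.10, 10.10 and 10.18 log2 on the normal arrays, 10.60, 10.59 and 10.74 on the 4NQO arrays and 10.55, 10.39 and 10.44 on the IL-1Ra arrays. Every 4NQO array was thus above every IL-1Ra array, and every IL-1Ra array above every normal one. The rise in 4NQO against normal was 0.52 ± 0.10 log2 (SE, n = 3 arrays per group), or 1.43-fold, with a limma adjusted p of 0.012, and the call held under all 18 other settings of the limma fit. Psmd1 kept the same order of groups, at 9.06, 8.94 and 8.98 log2 in normal, 9.41, 9.48 and 9.36 in 4NQO and 9.25, 9.27 and 9.19 in IL-1Ra tongue, with no overlap between any of the groups. Its rise was 0.42 ± 0.09 log2, or 1.34-fold, with an adjusted p of 0.0198. The Psmd1 call was lost without any single normal array (0.40 to 0.45 log2, adjusted p 0.0504 to 0.0789), after quantile normalization (0.30, adjusted p 0.0747) and after cyclic loess (0.25, adjusted p 0.121). In IL-1Ra against 4NQO tongue the differences were -0.19 (95% interval -0.41 to 0.03) for Psmd2 and -0.18 (-0.39 to 0.03) for Psmd1, with adjusted p of 0.344 and 0.340. Against normal, with which both treated groups were compared, the IL-1Ra values were 0.33 (adjusted p 0.0946) and 0.24 (adjusted p 0.168).

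The promoters of these genes are shown because stress-induced proteasome genes are known to be driven through antioxidant response elements. The windows run from 250 bases before to 50 bases after the annotated start, are taken from RefSeq on build GRCr8, and are written 5′ to 3′ along the gene. Psmd1 lies at chr9:94157721-94158020 (plus strand) and Psmd2 at chr11:93763339-93763638 (minus strand). Capitals mark matches, on either strand, to TGACNNNGC or TGAGNNNGC, the core letters of that element.
Psmd1: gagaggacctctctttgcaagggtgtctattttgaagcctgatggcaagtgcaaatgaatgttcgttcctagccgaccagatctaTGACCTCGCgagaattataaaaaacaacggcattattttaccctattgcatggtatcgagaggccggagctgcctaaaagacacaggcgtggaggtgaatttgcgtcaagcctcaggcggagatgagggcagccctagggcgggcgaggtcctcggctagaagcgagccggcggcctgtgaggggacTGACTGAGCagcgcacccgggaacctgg
Psmd2: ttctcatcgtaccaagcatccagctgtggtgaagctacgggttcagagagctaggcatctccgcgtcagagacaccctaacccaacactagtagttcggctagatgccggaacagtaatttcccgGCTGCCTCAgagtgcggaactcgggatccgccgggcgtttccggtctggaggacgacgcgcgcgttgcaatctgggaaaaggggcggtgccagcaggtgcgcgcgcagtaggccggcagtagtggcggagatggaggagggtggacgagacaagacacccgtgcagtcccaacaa
The Psmd1 window held 2 matches to TGACNNNGC, and the Psmd2 window held 1 match to TGAGNNNGC, read on the opposite strand. Over 33469 rat promoters of this length, 12.1% held TGACNNNGC and 17.2% TGAGNNNGC. Promoters were found for 40 of the 44 members, and of these 7 held TGACNNNGC (Psma3, Psmb2, Psmb5, Psmd1, Psmd3, Psmd9 and Psme4) and 9 held TGAGNNNGC (Psma5, Psmb1, Psmb2, Psmb3, Psmc2, Psmd2, Psmd5, Psmd13 and Psmg4). CCAAT, a common promoter element, was in 20 of the 40 windows and in 37.5% of all. These are matches of letters and do not show that a factor binds.

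The immune subunits had the largest differences from normal tongue of any class and also the widest spread. Psmb8, which replaces Psmb5, had levels of 6.09, 6.74 and 5.97 log2 on the normal arrays, 7.28, 6.66 and 6.87 on the 4NQO arrays and 6.88, 6.81 and 7.62 on the IL-1Ra arrays. Psmb9, which replaces Psmb6, had 6.26, 7.04 and 6.24 in normal, 7.59, 6.71 and 7.25 in 4NQO and 6.85, 7.28 and 8.36 in IL-1Ra tongue. Psmb10, which replaces Psmb7, had 6.32, 6.56 and 6.05 in normal, 7.22, 6.53 and 7.30 in 4NQO and 6.66, 6.69 and 6.97 in IL-1Ra tongue. The arrays moved together in these genes: normal 2 was the highest normal array and 4NQO 2 the lowest 4NQO array for each of them, so that normal and 4NQO arrays overlapped in all 3 genes, while IL-1Ra 3 was the highest IL-1Ra array. Of all genes, 38.3% were highest on normal 2 among normal arrays and 40.2% on IL-1Ra 3 among IL-1Ra arrays. Psmb10 rose by 0.70 ± 0.21 log2 in 4NQO against normal tongue, or 1.63-fold, with an adjusted p of 0.0495. That call was kept without 4NQO 2 but lost without any other single array (0.56 to 0.83, adjusted p 0.056 to 0.173), after quantile normalization (0.53, adjusted p 0.12) and after cyclic loess (0.51, adjusted p 0.148). Psmb8 and Psmb9 differed by 0.67 log2 each, with adjusted p of 0.111 and 0.245.

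Between IL-1Ra and 4NQO tongue no immune subunit was called. The differences were 0.16 (95% interval -0.43 to 0.75) for Psmb8, 0.31 (-0.53 to 1.15) for Psmb9 and -0.24 (-0.71 to 0.22) for Psmb10. These intervals are wide and allow changes of more than 1.5-fold in at least 1 direction for each gene. Against normal, the IL-1Ra differences were 0.83 (adjusted p 0.109), 0.98 (adjusted p 0.164) and 0.46 (adjusted p 0.225). Every IL-1Ra array was above every normal array for Psmb8 and Psmb10 but not for Psmb9, beside 25.9% of all genes.

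The mean deviation of the 3 immune subunits from their own 9-array means was -0.62, -0.06 and -0.76 log2 on normal arrays 1 to 3, 0.52, -0.21 and 0.29 on the 4NQO arrays, and -0.05, 0.08 and 0.80 on the IL-1Ra arrays. The summed intensity of 12 measured leukocyte markers (of 14 listed) was 1654, 2010 and 1341 on the same normal arrays, 1767, 928 and 1890 on the 4NQO arrays and 2131, 2060 and 2541 on the IL-1Ra arrays. None of these markers was below the lower quartile on every array. Thus normal 2 and IL-1Ra 3, the highest arrays of their groups for the immune subunits, also had the highest leukocyte sums of their groups, and 4NQO 2, the lowest, had the lowest. The other arrays did not all match. Array 4NQO 1 was the highest 4NQO array for the immune subunits, but 4NQO 3 had the highest leukocyte sum. IL-1Ra 1 had a higher sum than IL-1Ra 2 but a lower deviation. The leukocyte sums of normal and 4NQO arrays overlapped, as did the levels of the immune subunits. In 4NQO against normal tongue the leukocyte markers had a median difference of -0.28 log2, with 3 of 12 above 0 (58.0% of all genes). The immune subunits had a median of 0.67, with all 3 above 0. The part of leukocytes in the immune subunit levels was not tested.

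The partners that the immune subunits replace varied far less. Psmb5, which carries the chymotrypsin-like site, had levels of 11.42, 11.35 and 11.25 log2 in normal, 11.52, 11.45 and 11.59 in 4NQO and 11.51, 11.48 and 11.54 in IL-1Ra tongue. Its difference in 4NQO against normal was 0.18 (95% interval -0.04 to 0.39, adjusted p 0.228). Psmb7, which carries the trypsin-like site, had 10.61, 10.57 and 10.50 in normal, 10.76, 10.82 and 10.73 in 4NQO and 10.70, 10.63 and 10.66 in IL-1Ra tongue, and its difference was 0.21 (0.00 to 0.42, adjusted p 0.146). For both genes every treated array was above every normal array. Of all genes, 26.5% had every 4NQO array above every normal array, and 25.9% every IL-1Ra array. The log2 ratio of Psmb8 to Psmb5 was higher by 0.50 in 4NQO than in normal tongue, and the exact two-sided permutation test over arrays gave p = 0.3. That of Psmb10 to Psmb7 was higher by 0.49 (exact permutation p = 0.2). In IL-1Ra against 4NQO tongue the ratios differed by 0.17 (exact permutation p = 0.5) and -0.14 (exact permutation p = 0.7), and against normal by 0.67 (exact permutation p = 0.3) and 0.36 (exact permutation p = 0.2). With 3 arrays against 3, this test cannot go below 0.1.

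**Figure D2:**
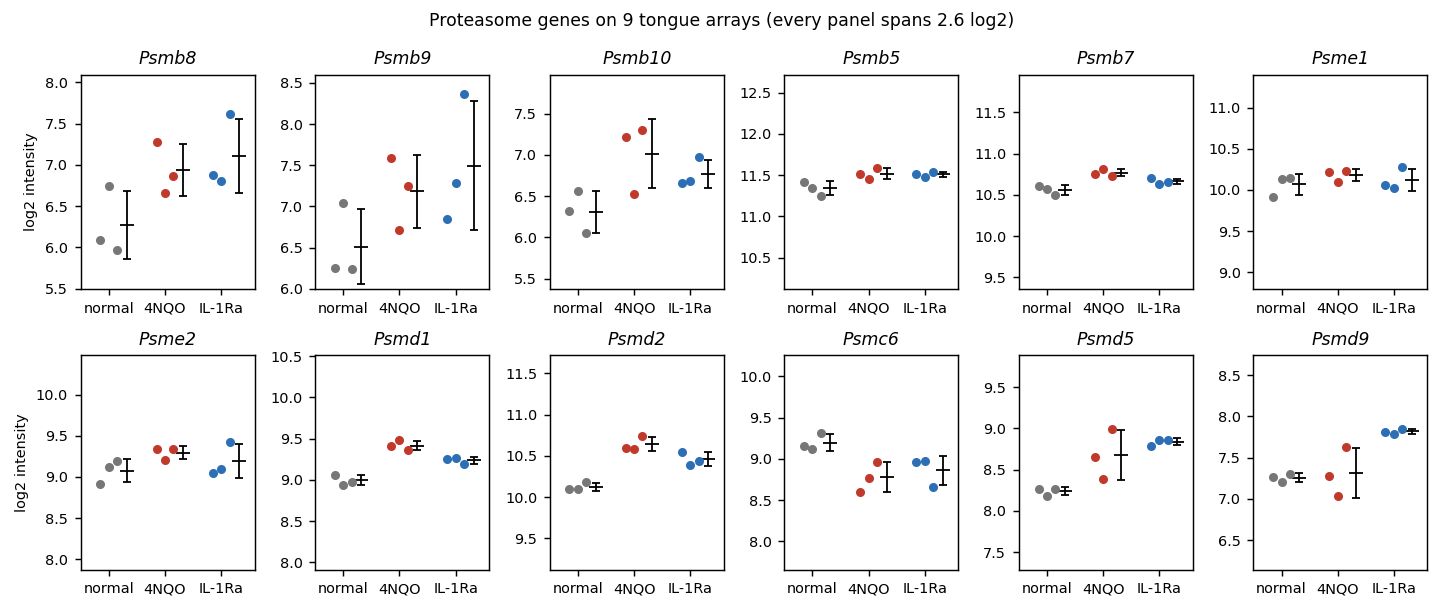
Log2 intensity of 12 proteasome genes on each array (points) with the group mean and SD (black) in normal, 4NQO and IL-1Ra tongue, each panel spanning 2.6 log2. The immune subunits Psmb8, Psmb9 and Psmb10 spread widely within groups, whereas Psmd1 and Psmd2 do not overlap between groups.

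The promoters of the immune subunits are shown for the letters of the interferon response elements, the interferon-stimulated core GAAANNGAA and the gamma-activated site TTCNNNGAA, together with CCAAT. They are RefSeq windows of the same length on GRCr8, at chr20:4656982-4657281 (minus strand) for Psmb8, chr20:4668750-4669049 (plus strand) for Psmb9 and chr19:50743243-50743542 (minus strand) for Psmb10. Capitals mark matches on either strand.
Psmb8: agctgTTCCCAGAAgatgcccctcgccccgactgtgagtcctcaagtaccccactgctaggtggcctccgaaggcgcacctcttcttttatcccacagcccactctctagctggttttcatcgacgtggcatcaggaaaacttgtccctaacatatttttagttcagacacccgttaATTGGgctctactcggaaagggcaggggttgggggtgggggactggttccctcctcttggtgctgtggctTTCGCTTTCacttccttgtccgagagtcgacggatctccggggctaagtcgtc
Psmb9: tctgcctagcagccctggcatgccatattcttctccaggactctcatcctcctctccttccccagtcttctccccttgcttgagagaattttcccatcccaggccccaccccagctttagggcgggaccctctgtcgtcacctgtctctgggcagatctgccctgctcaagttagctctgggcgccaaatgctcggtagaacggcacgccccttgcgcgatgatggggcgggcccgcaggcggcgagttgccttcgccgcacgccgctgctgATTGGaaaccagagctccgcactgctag
Psmb10: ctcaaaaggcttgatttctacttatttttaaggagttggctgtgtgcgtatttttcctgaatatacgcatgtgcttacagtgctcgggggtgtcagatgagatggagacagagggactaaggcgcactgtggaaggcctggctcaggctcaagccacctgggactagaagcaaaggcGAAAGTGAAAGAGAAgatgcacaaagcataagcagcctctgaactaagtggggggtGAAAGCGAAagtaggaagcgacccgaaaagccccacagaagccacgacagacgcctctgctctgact
The Psmb10 window held 3 matches to GAAANNGAA, of which the pair nearest to each other overlap. The Psmb8 window held 1 such match, across the start site, as well as 1 TTCNNNGAA and 1 CCAAT, and the Psmb9 window held 1 CCAAT and neither of the others. GAAANNGAA was in 9 of the 40 member windows (Psma4, Psmb2, Psmb3, Psmb8, Psmb10, Psmd7, Psmd11, Psme2 and Psmg4) and in 9.71% of all promoters, and TTCNNNGAA in 4 (Psmb8, Psmc6, Psmd3 and Psmd7) and in 8.87% of all.

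In the core, none of the 7 alpha ring subunits was called in 4NQO against normal tongue, the median difference was 0.07 log2, and all 7 intervals lay within 1.5-fold. The values ran from -0.07 for Psma1 to 0.14 for Psma6. Psma6 had 11.61, 11.67 and 11.63 log2 in normal, 11.76, 11.75 and 11.82 in 4NQO and 11.75, 11.74 and 11.84 in IL-1Ra tongue, with both treated groups above normal. Psma1 had 10.01, 10.06 and 10.03 in normal, 9.86, 9.92 and 10.09 in 4NQO and 9.71, 9.91 and 9.68 in IL-1Ra tongue, and every IL-1Ra array lay below every normal one (-0.27, adjusted p 0.183). Psma3, with a difference of 0.13 in 4NQO against normal tongue, had the most negative value of its ring in IL-1Ra against 4NQO (-0.25, 95% interval -0.51 to 0.00, adjusted p 0.269).

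The 6 constitutive beta subunits all had differences above 0 in 4NQO against normal tongue, beside 58.0% of all genes. Their median was 0.18 log2 with none called, and all 6 intervals lay within 1.5-fold. Psmb3, a structural subunit without a proteolytic site, stood highest at 0.25 (adjusted p 0.156), with 10.10, 10.12 and 10.08 log2 in normal, 10.26, 10.22 and 10.58 in 4NQO and 10.33, 10.34 and 10.36 in IL-1Ra tongue. Psmb2, also structural, stood lowest at 0.01 (adjusted p 0.957). In IL-1Ra against normal tongue all arrays of the treated group were above all normal arrays for each of the 6 genes (beside 25.9% of all genes), with differences of 0.10 (Psmb7) to 0.24 (Psmb3) and none called. In IL-1Ra against 4NQO tongue their differences were -0.11 (Psmb7) to 0.12 (Psmb2). After cyclic loess the differences of Psmb2 and Psmb3 from normal in 4NQO tongue were -0.12 and 0.13.

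The 6 ATPases form the ring that unfolds the substrate. None was called in the deposited scaling. In 4NQO against normal tongue 5 of 6 had differences above 0 (58.0% of all genes did), from 0.05 (Psmc4) to 0.26 (Psmc1, adjusted p 0.0867). The exception was Psmc6, which had 9.16, 9.12 and 9.31 log2 in normal, 8.60, 8.77 and 8.96 in 4NQO and 8.96, 8.97 and 8.66 in IL-1Ra tongue. All treated arrays of Psmc6 lay below all normal arrays. The difference was -0.42 ± 0.13 in 4NQO (adjusted p 0.0559) and -0.34 ± 0.13 in IL-1Ra tongue (adjusted p 0.170). It was called lower in 4NQO tongue under 7 of 18 other settings, among them quantile normalization (-0.54, adjusted p 0.0404) and cyclic loess (-0.61, adjusted p 0.0304). The other 2 probe sets of Psmc6 gave -0.33 (adjusted p 0.258) and 0.14 (adjusted p 0.375) in the same comparison, so the probe sets of this gene disagreed in direction. A second, dim probe set of Psmc4 was called lower in 4NQO against normal tongue (-0.59, adjusted p 0.028), opposite in sign to the brighter one. In IL-1Ra against 4NQO tongue the ATPases ran from -0.10 (Psmc5) to 0.11 (Psmc4), and against normal the highest was Psmc3 (0.22, adjusted p 0.253).

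Of the 11 non-ATPase subunits, 2 rose in 4NQO against normal tongue, Psmd1 and Psmd2, beside 12.4% of all genes, and the other 9 were not called. Psmd4, a ubiquitin receptor, had 9.08, 8.92 and 9.0 log2 in normal, 9.26, 9.28 and 9.32 in 4NQO and 9.20, 9.16 and 9.10 in IL-1Ra tongue. Psmd11, a lid subunit, had 9.64, 9.57 and 9.69, then 9.83, 9.97 and 10.00, then 9.97, 9.87 and 9.90 in the same order. Neither gene's treated arrays overlapped its normal arrays, and the differences in 4NQO against normal were 0.29 (adjusted p 0.0659) and 0.30 (adjusted p 0.0677). A second bright probe set of Psmd11 gave 0.38 (adjusted p 0.0503). Psmd14, the deubiquitinase of the lid, and Psmd7, the subunit it pairs with, had differences of -0.08 (95% interval -0.32 to 0.17) and 0.04 (-0.16 to 0.25). A second bright probe set of Psmd14 gave -0.29 (adjusted p 0.135) in 4NQO against normal and 0.40 (adjusted p 0.118) in IL-1Ra against 4NQO tongue. A dimmer one gave 0.00 and 0.07. Psmd12, a lid subunit, had the most negative value of the class at -0.19 (adjusted p 0.380) in 4NQO and -0.39 (adjusted p 0.155) in IL-1Ra tongue. Its levels were 9.08, 9.18 and 9.38 in normal, 8.85, 9.21 and 9.01 in 4NQO and 8.93, 8.96 and 8.58 in IL-1Ra tongue, and the IL-1Ra arrays lay below the normal ones. In the group of 11, 7 differences were above 0 in 4NQO against normal tongue, beside 58.0% of all genes. The median was 0.12 log2, beside 0.08 over all genes.

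The assembly chaperones of the base, Psmd5, Psmd9 and Psmd10, hold the ATPases while the regulatory particle is put together and are not part of the finished proteasome. Psmd5 had 8.26, 8.18 and 8.27 log2 in normal, 8.65, 8.39 and 8.99 in 4NQO and 8.79, 8.86 and 8.86 in IL-1Ra tongue. Psmd9 had 7.27, 7.20 and 7.30 in normal, 7.28, 7.03 and 7.63 in 4NQO and 7.81, 7.79 and 7.85 in IL-1Ra tongue. The IL-1Ra arrays of both genes were close together and above all normal arrays, and those of Psmd9 were above all 4NQO arrays as well, while the 4NQO arrays were scattered. The differences from normal in IL-1Ra tongue were 0.60 ± 0.14 for Psmd5 (adjusted p 0.0611) and 0.56 ± 0.14 for Psmd9 (adjusted p 0.069), and in 4NQO tongue 0.44 (adjusted p 0.065) and 0.06 (adjusted p 0.812). Between IL-1Ra and 4NQO tongue Psmd9 differed by 0.50 (95% interval 0.19 to 0.82, adjusted p 0.0975) and Psmd5 by 0.16 (-0.15 to 0.48). A second, dim probe set of Psmd9 gave 0.11 in IL-1Ra against 4NQO tongue (adjusted p 0.568), and against normal it was opposite in sign to the brighter one, at -0.16 in IL-1Ra (adjusted p 0.345) and -0.28 in 4NQO tongue (adjusted p 0.0797). Psmd10, also known as gankyrin, had differences of 0.22 in 4NQO and 0.14 in IL-1Ra against normal tongue, with adjusted p of 0.181 and 0.461.

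Activators bind the ends of the core in place of the regulatory particle. Psme1 and Psme2 form the interferon-inducible activator. Psme1 had 9.92, 10.13 and 10.15 log2 in normal, 10.22, 10.10 and 10.23 in 4NQO and 10.06, 10.03 and 10.28 in IL-1Ra tongue, so the groups overlapped, and its difference in 4NQO against normal was 0.12 (95% interval -0.14 to 0.37). Psme2 had 8.92, 9.12 and 9.19, then 9.34, 9.21 and 9.34, then 9.05, 9.10 and 9.43, and its difference was 0.22 (-0.07 to 0.51, adjusted p 0.262). As with the immune subunits, IL-1Ra 3 was the highest IL-1Ra array for both genes, as it was for 40.2% of all genes. Unlike with the immune subunits, the highest normal array was normal 3 for both. Psme4, a large activator of the nucleus, had 9.50, 9.61 and 9.57 in normal, 9.83, 10.00 and 9.54 in 4NQO and 9.51, 9.41 and 9.61 in IL-1Ra tongue. Its difference was 0.23 (adjusted p 0.246) in 4NQO against normal and -0.28 (adjusted p 0.281) in IL-1Ra against 4NQO, and the other 2 probe sets of Psme4 gave 0.42 and 0.36 in the former and -0.54 and -0.38 in the latter, none of them called.

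Psmf1, which can inhibit the core in isolation, had 7.81, 7.93 and 7.85 log2 in normal, 8.14, 8.20 and 8.17 in 4NQO and 8.0, 7.78 and 7.98 in IL-1Ra tongue. All 4NQO arrays lay above all arrays of the other groups. The difference was 0.31 (95% interval 0.08 to 0.53, adjusted p 0.0692) in 4NQO against normal and -0.25 (-0.48 to -0.03, adjusted p 0.216) in IL-1Ra against 4NQO tongue. After cyclic loess these values were 0.09 and -0.17. The core chaperones Psmg1 to Psmg4, which guide assembly of the alpha ring, had differences of 0.17, 0.11, 0.14 and 0.10 in 4NQO against normal and 0.01, -0.02, -0.16 and -0.22 in IL-1Ra against 4NQO tongue, with none called and all 8 intervals within 1.5-fold. After cyclic loess the former were -0.01, -0.11, -0.08 and -0.09.

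The second comparison asked what IL-1Ra changed in tongues that had received the carcinogen. No proteasome gene was called by limma in IL-1Ra against 4NQO tongue, in either direction. Of all genes, 1.91% were called higher and 0.753% lower in this comparison. An unadjusted limma p under 0.05 was found for 3 members (Psmd8, Psmd9 and Psmf1), beside 3088 of all 14217 genes. The methods' t-test, unadjusted, gave 7 members (1 higher, 6 lower), beside 805 higher and 1134 lower of all genes. The median difference was -0.05 log2 beside -0.04 over all genes. It was 0.020 after cyclic loess and 0.003 without 4NQO 3. All IL-1Ra arrays lay above all 4NQO arrays for 1 proteasome gene, Psmd9 (9.31% of all genes), and below them for 7 (13.5% of all genes), namely Psma3, Psmb7, Psmd1, Psmd2, Psmd4, Psmd7 and Psmf1. The interval lay within 1.5-fold for 40 of the 44 genes (90.9%, against 62.4% of all genes, not matched for level). The 4 with wider bounds were the immune subunits and Psmd9, and Psmd9 was called higher when 4NQO 3 was left out (0.66 log2, adjusted p 0.0131).

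Against normal tongue, which served as the control of both treated groups, no proteasome gene was called in the IL-1Ra group. Of all genes, 1.66% were called higher and 0.542% lower. An unadjusted limma p under 0.05 was found for 11 members, beside 3643 of all 14217 genes. The methods' t-test, unadjusted, gave 22 members (19 higher, 3 lower), beside 2817 higher and 1337 lower of all genes. The median difference was 0.12 log2 beside 0.04 over all genes, and it was 0.071 after quantile normalization and 0.070 after cyclic loess. All IL-1Ra arrays lay above all normal arrays for 22 members (25.9% of all genes) and below them for 4, Psma1, Psmc6, Psmd6 and Psmd12 (14.4% of all genes). The interval lay within 1.5-fold for 37 of 44 genes (84.1%, against 57.3% of all genes, not matched for level). Whether a member's difference from normal was itself different between the treated groups is given by the IL-1Ra against 4NQO values.

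Array 4NQO 3 stood above the other 4NQO arrays for most members. It was the highest 4NQO array for 28 of the 41 members other than the immune subunits, beside 37.8% of all genes, and the median deviation of those 41 genes from their own means was 0.14 log2 there, against 0.00 and 0.01 on 4NQO 1 and 4NQO 2. The same array had the highest summed intensity of epithelial markers of the group (43547, against 31036 and 25330). Its 3′ minus 5′ signal was also the highest of the group for beta-actin (1.29 log2, against 1.24 and 1.07), GAPDH (0.43, against 0.31 and 0.31) and hexokinase (1.78, against 1.42 and 1.29). The part of these in the higher levels was not tested. Without 4NQO 3 the median difference of the proteasome genes in 4NQO against normal was 0.122 log2 with 32 of 44 above 0. On the other arrays the median deviation of these 41 genes was -0.08 to -0.06 in normal and 0.00 to 0.02 in IL-1Ra tongue.

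**Figure D3:**
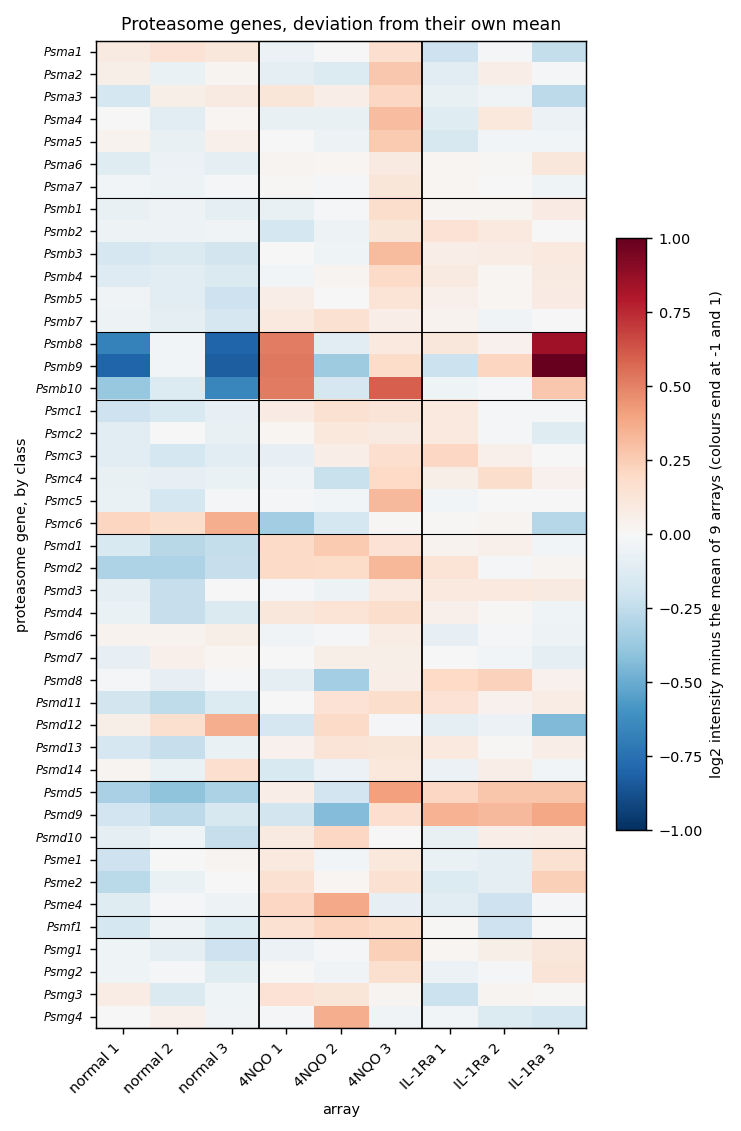
Deviation of each of the 44 proteasome genes (rows, grouped by class) from its own 9-array mean, in log2, on each array (columns); red is higher, blue lower, and colours end at -1 and 1. The immune subunits hold the strongest colours, normal arrays are mostly pale blue outside Psma1, Psmc6 and Psmd12, and 4NQO 3 is red for most members.

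Among 23 measured genes (of 26 listed) that deliver substrates to the proteasome, dock on it or control its synthesis, 5 rose and 0 fell in 4NQO against normal tongue, beside 12.4% and 5.08% of all genes, with a median of 0.19 log2 beside 0.08 over all genes. Vcp, the ATPase that extracts ubiquitylated proteins from membranes and complexes, had 10.61, 10.38 and 10.45 log2 in normal, 11.09, 10.97 and 11.07 in 4NQO and 10.90, 10.74 and 10.77 in IL-1Ra tongue. The rise was 0.56 ± 0.10 log2 (1.47-fold, adjusted p 0.0113), and the groups did not overlap. Nploc4, a cofactor of Vcp, rose by 0.47 (adjusted p 0.0265), the fifth of these by adjusted p and named outside the rule. The shuttle factors Ubqln1 and Ubqln4, which carry ubiquitylated proteins to the regulatory particle, rose by 0.52 (adjusted p 0.0256) and 0.56 (adjusted p 0.0148). Ube3c, a ubiquitin ligase that docks on the proteasome, rose by 0.61 (1.52-fold, adjusted p 0.0113). After cyclic loess the Vcp call was kept (0.47, adjusted p 0.0299), whereas Ube3c was at 0.39 (adjusted p 0.0502), Ubqln1 at 0.34, Ubqln4 at 0.34 and Nploc4 at 0.25, with adjusted p of 0.148, 0.0931 and 0.239. Quantile normalization kept the calls of Vcp and Ube3c but lost those of Ubqln1, Ubqln4 and Nploc4 (adjusted p 0.103, 0.0857 and 0.185). Without normal 3, none of the 5 was called. The Ubqln1 call was lost without any single normal array, and that of Ubqln4 also without normal 1. That of Nploc4 was lost without any single normal array or 4NQO 1. Adjusted p in these losses was up to 0.0954.

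In the other comparisons, 1 partner was called in each. Ubqln1 had 8.54, 8.48 and 8.46 log2 in normal, 8.97, 8.84 and 9.23 in 4NQO and 9.49, 9.43 and 9.22 in IL-1Ra tongue, and it rose by 0.88 ± 0.13 in IL-1Ra against normal tongue (1.84-fold, adjusted p 0.0344). Akirin2, which with Ipo9 brings proteasomes into the nucleus, had 7.43, 7.33 and 7.22 in normal, 6.97, 7.12 and 7.15 in 4NQO and 7.52, 7.59 and 7.52 in IL-1Ra tongue. It was lowest in the 4NQO group, without overlap, and rose by 0.46 ± 0.10 in IL-1Ra against 4NQO tongue (1.38-fold, adjusted p 0.0494). The Akirin2 call was kept after quantile normalization and cyclic loess (adjusted p 0.0322 and 0.0226) but lost without any single array other than 4NQO 3 (adjusted p 0.0821 to 0.168). The Ubqln1 call was lost without any single normal or IL-1Ra array (0.83 to 0.96, adjusted p 0.0802 to 0.162) and after cyclic loess (0.78, adjusted p 0.0508), and kept after quantile normalization (0.77, adjusted p 0.0439).

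Ipo9 and Nfe2l1, chosen after their values were seen, were near the threshold. Ipo9 had 9.43, 9.65 and 9.51 log2 in normal, 9.21, 8.77 and 9.28 in 4NQO and 9.83, 9.62 and 9.71 in IL-1Ra tongue, with the 4NQO arrays lowest, and differed by 0.63 in IL-1Ra against 4NQO tongue (adjusted p 0.0547). Nfe2l1, a transcription factor that raises proteasome gene expression when proteolysis is impaired, had 9.53, 9.65 and 9.50 in normal, 9.86, 9.92 and 9.87 in 4NQO and 9.47, 9.60 and 9.43 in IL-1Ra tongue. Its 4NQO arrays were above all others, with differences of 0.33 in 4NQO against normal (adjusted p 0.0511) and -0.39 in IL-1Ra against 4NQO tongue (adjusted p 0.0741).

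**Figure D4:**
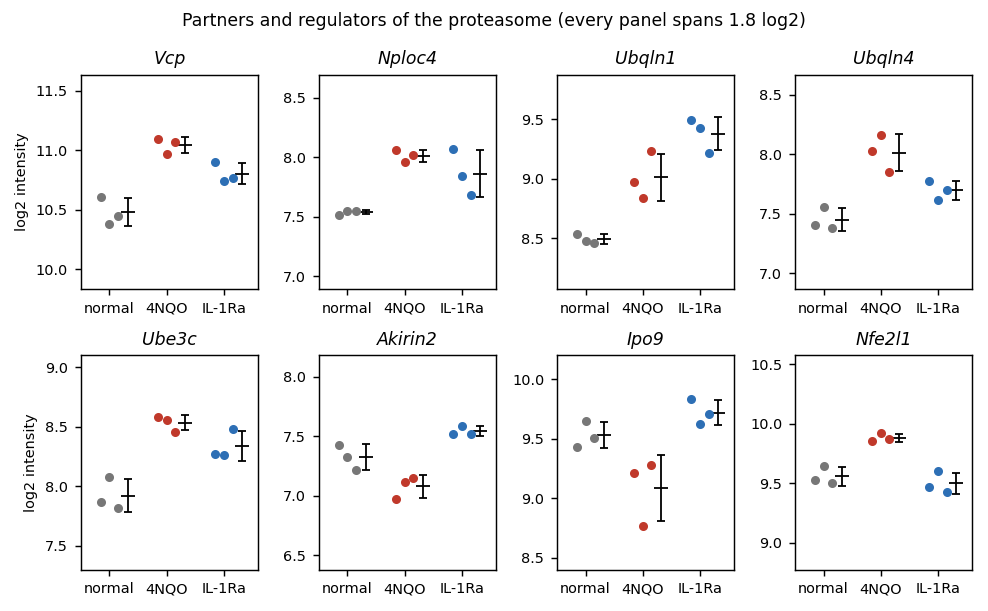
Log2 intensity of 8 partners and regulators of the proteasome on each array (points) with the group mean and SD (black), each panel spanning 1.8 log2. Vcp, Nploc4, Ubqln1, Ubqln4 and Ube3c are higher in 4NQO than in normal tongue, and the 4NQO arrays of Akirin2 and Ipo9 are lowest.

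Of 14 measured genes (of 16 listed) that load peptides on MHC class I or induce this pathway, 2 rose in 4NQO against normal tongue and 0 fell, beside 12.4% and 5.08% of all genes. They were Canx, a chaperone of class I heavy chains (0.41, adjusted p 0.0304), and Irf2, a transcription factor (0.40, adjusted p 0.0301), and after cyclic loess neither was called (0.29 and 0.18, adjusted p 0.122 and 0.309), nor after quantile normalization (0.36 and 0.22, adjusted p 0.0614 and 0.226). Without any single normal array or 4NQO 3 the Canx call was lost (0.34 to 0.45, adjusted p 0.0579 to 0.116), and that of Irf2 without any of these or 4NQO 1 (0.38 to 0.43, adjusted p 0.0509 to 0.0971). Irf2, which had 3 probe sets, ran from 0.04 to 0.43 over the 18 other settings, at adjusted p of up to 0.78. Calr, the chaperone of the loading complex, rose by 0.59 in IL-1Ra against normal tongue (adjusted p 0.044). The Calr call was lost after quantile normalization (0.51, adjusted p 0.0654), after cyclic loess (0.50, adjusted p 0.0779) and without any single array other than 4NQO 2 or 4NQO 3 (0.55 to 0.65, adjusted p 0.055 to 0.171). In IL-1Ra against 4NQO tongue no gene of the list was called. Tap1, which carries peptides into the endoplasmic reticulum, had 5.32, 5.73 and 5.69 log2 in normal, 6.58, 6.24 and 6.92 in 4NQO and 5.80, 5.83 and 7.26 in IL-1Ra tongue. As for the immune subunits, 4NQO 2 was lowest and IL-1Ra 3 highest in its group, and the difference was 1.00 (adjusted p 0.0801) in 4NQO and 0.72 (adjusted p 0.253) in IL-1Ra against normal tongue. Ifng, the inducer of the immune subunits, was below the lower quartile on every array.

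Other ubiquitin pathway genes were called in small numbers. In 4NQO against normal tongue, 1 of 10 subunits of the COP9 signalosome, a relative of the proteasome lid, rose (Gps1, 0.32, adjusted p 0.0449), and 1 of 28 ubiquitin-conjugating enzymes rose (Ube2q2, 0.41, adjusted p 0.0237), beside 12.4% of all genes. The Gps1 call was lost without any single array of the 9 (0.29 to 0.35, adjusted p 0.0543 to 0.16), after quantile normalization (0.19) and after cyclic loess (0.14). That of Ube2q2 was lost without any single normal array (0.36 to 0.46, adjusted p 0.0535 to 0.103) and after the same normalizations (0.29 and 0.24, adjusted p 0.0792 and 0.153). None of these genes was called in the other comparisons. Only 2 of 6 genes for ubiquitin and its activating enzymes were measured, Uba1 and Uba6, and neither was called in any comparison. Of 6 measured genes (of 8 listed) of ubiquitin-dependent muscle wasting, 2 rose in 4NQO against normal tongue (12.4% of all genes did so), the ubiquitin ligase Fbxo30 (0.50, adjusted p 0.0203) and Mstn, a secreted inhibitor of muscle growth that is no ligase (0.90, adjusted p 0.0233). This call of Fbxo30 was lost without any single normal array (0.49 to 0.53, adjusted p 0.0644 to 0.0722) and after quantile normalization or cyclic loess (0.38 and 0.41, adjusted p 0.0623 and 0.0502) and for the mean of its probe sets (0.26, adjusted p 0.316), and that of Mstn without normal 2 or normal 3 (0.75 to 0.93, adjusted p 0.064 to 0.0963). Mstn was dim, at 3.58, 3.43 and 3.05 log2 in normal and 4.06, 4.06 and 4.62 in 4NQO tongue. Its normal levels lay below the lower quartile of every array, which was 3.6 to 3.78. Fbxo30 had 5.81, 5.80 and 5.88 log2 in normal, 6.21, 6.46 and 6.32 in 4NQO and 5.52, 5.35 and 5.64 in IL-1Ra tongue. It fell in IL-1Ra against 4NQO tongue by 0.83 ± 0.11 log2 (adjusted p 0.00676) without overlap, and this call was lost under 1 of the 18 other settings, that same mean (-0.60, adjusted p 0.0986). The summed intensity of skeletal muscle markers was 59423 to 66114 on normal, 55231 to 68205 on 4NQO and 51405 to 57048 on IL-1Ra arrays. In IL-1Ra against 4NQO tongue 2 of the 9 markers were called lower (0.753% of all genes). They were Ttn (-0.72, adjusted p 0.0494) and Tnnt1 (-1.82, adjusted p 0.0487), while the median of the 9 was -0.06. The part of muscle in the Fbxo30 difference was not tested.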

How the data were processed

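Total RNA of rat tongue was made into biotinylated cRNA and read on Affymetrix rat genome arrays, 1 per sample. The values the authors deposited were linear intensities per probe set. In their processing notes the submitters give the tools Affymetrix Expression Console and RMA, with versions not given in the sources used here. RMA is meant to align arrays, which can hide a change shared by most genes, but the upper quartiles of the deposited values still ran from 7.04 to 7.28 log2. No array pair was identical, and correlations between arrays were 0.967 to 0.995. Replicate numbers name arrays within a group and pair nothing.

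After 57 control probe sets were left out, log2 intensities of 31042 probe sets were fitted with limma 3.58.1 in R 4.3.3 (3 group means, all 9 arrays, eBayes, two-sided tests). The Benjamini-Hochberg adjustment ran over all probe sets, separately in the 3 comparisons, with a threshold of 0.05. The annotation gave 20826 probe sets 1 symbol, 436 several and 9780 none. The background counts 1 probe set per gene, the brightest. All 44 members matched RefSeq symbols by gene identifier. The number of arrays limits the precision.

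The members, gene lists, tests and rule for named genes were chosen with earlier results of these data known. The rule names the immune subunits with their counterparts, the activators, inhibitor and core chaperones, called genes, the extremes of each class, and up to 4 called genes of each other list per comparison. Other settings were quantile normalization, cyclic loess, median centring, log2 of intensity plus 16, leaving out the dimmest 40% of probe sets, trend and robust variance, array weights, only the compared arrays, the mean of a gene's probe sets, and each array left out. The methods' t-test was run at an unadjusted p of 0.05, with folds of 1.5 and 2, and after Benjamini-Hochberg adjustment. Plots were made in Python 3.11.15 with matplotlib 3.10.9.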

Additional observations from a re-analysis of the deposited data

How the results depend on the processing

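With 3 arrays per group, the number of arrays limits every count given here. In 4NQO against normal tongue 3 proteasome genes were called by limma. The count was 9 (8 higher, 1 lower) with log2 of intensity plus 16, 5 without the dimmest 40% of probe sets and 5 with array weights, and 1 to 4 when single arrays were left out. It was 1 without normal 1, normal 2 or normal 3, with Psmd2 the gene called each time. Of all 14217 genes, 2059 were called higher and 659 lower with log2 of intensity plus 16, and 2029 and 844 with array weights. Without the dimmest probe sets, 1985 and 601 of 10975 genes were called. The calls were 768 and 256 without normal 1, 598 and 242 without normal 2, and 334 and 121 without normal 3. The methods' t-test gave 12 at an unadjusted p under 0.05, 0 with a fold of 1.5, 0 with a fold of 2 and 0 after Benjamini-Hochberg adjustment. Over all genes this t-test gave 2724 higher and 1404 lower unadjusted, 840 and 359 with a fold of 1.5, and 118 and 141 with a fold of 2. The median difference of 0.139 log2 was 0.076 after quantile normalization and 0.011 after cyclic loess. In IL-1Ra against 4NQO tongue the count of 0 became 7 by the unadjusted t-test (1 higher, 6 lower), beside 805 higher and 1134 lower of all genes. It was 0 to 1 when single arrays were left out, the call being Psmd9 without 4NQO 3. There 698 of all genes were called higher and 630 lower. The median of -0.051 was 0.020 after cyclic loess and ran from -0.074 to 0.003 when single arrays were left out, the highest without 4NQO 3. In IL-1Ra against normal tongue the count of 0 became 2 with log2 of intensity plus 16 (Psmd2 and Psmd5), 1 without the dimmest probe sets (Psmd5), 3 with array weights (Psmd2, Psmd5 and Psmd9) and 2 with only the compared arrays (Psmd5 and Psmd9). It ran from 0 to 2 when single arrays were left out, being 2 without 4NQO 2 or 4NQO 3 (Psmd5 and Psmd9). Of all genes, 559 were called higher and 139 lower with log2 of intensity plus 16, and 1420 and 531 with array weights. The calls were 1191 and 376 with only the compared arrays, and 401 and 107 of 10975 without the dimmest probe sets. They were 601 and 197 without 4NQO 2, and 969 and 254 without 4NQO 3. The t-test gave 22 unadjusted, 1 with a fold of 1.5 and 3 after adjustment (Psmb3, Psmd5 and Psmd9). Over all genes it gave 2817 higher and 1337 lower unadjusted, 593 and 194 with a fold of 1.5, and 59 and 15 after adjustment. The median of 0.123 was 0.071 after quantile normalization and 0.070 after cyclic loess. Apart from rescaling, the cause of these shifts was not tested. For 28 named proteasome genes and 13 named genes of other lists, 2211 differences were recomputed under other settings. No called difference changed sign, 107 lost and 34 gained a call, and 69 uncalled values changed sign.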
